A study of Rattus norvegicus with 6 samples.

Results

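The genes described here encode the signalling machinery that lies between Dectin-1 and its target genes. They include Syk, the Src family kinases, and the adaptors, phospholipases, exchange factors and lipid kinases these use. The Card9 module, inhibitors and phosphatases are also included. All genes were chosen by name, as a list of 37 genes. The platform annotation gave a probe set with exactly 1 gene symbol for 33 of them, out of 14506 genes so measured in the whole series. Malt1, Vav3, Cbl and Pik3cg had none and are not analysed here. Only Grb2 had 2 such probe sets, and the one with the higher mean over the 6 arrays was used.

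The cells were RBL-2H3, a rat basophilic leukaemia line used as a mast cell model made to overexpress wild-type Dectin-1, a surface receptor for beta-glucans. All 6 arrays came from cells with this receptor. There were 2 arrays of unstimulated control cells, 2 of Curdlan-treated cells (Curdlan is an insoluble beta-glucan) and 2 of cells pretreated with the Syk inhibitor R406 and then stimulated with Curdlan. The sources used here do not state doses, times, the number of clones or the species of the introduced receptor. No array of cells given R406 without Curdlan was used, so effects of R406 on the Curdlan response and on resting cells cannot be told apart. Nothing in the labels tells if arrays of 1 group were separate cultures. The p-values therefore reflect array-to-array spread alone, which could be technical.

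Dectin-1 carries in its cytoplasmic tail a tyrosine motif related to the immunoreceptor tyrosine-based activation motif (ITAM), the docking site used by the IgE receptor of mast cells. Src family kinases phosphorylate such motifs, Syk binds them through its SH2 domains, and Syk then phosphorylates adaptors that bring in phospholipase C gamma, Vav proteins and PI 3-kinase. Protein kinase C delta links this step to Card9, which assembles with Bcl10 and Malt1 to activate NF-kB. Some phosphatases, ubiquitin ligases and Dok adaptors limit the signal. The arrays measured transcripts, not phosphorylation or kinase activity.

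Values are log2 signals per probe set, and a change is the difference of 2 group means, given ± its SE (standard error) from a limma model of all 29214 probe sets. Rise and fall are used only where the p, adjusted by Benjamini-Hochberg across the whole table, is under 0.05. Signals of different probe sets are not comparable as amounts of transcript. Levels are therefore only set beside the array medians, and genes are compared by their changes. The members' mean signals ran from 5.68 for Pik3ap1 to 13.22 for Lcp2. Those of Pik3ap1, Fyn, Rasgrp1 and Prkcb lay under every array's median (7.204 to 7.241), and whether they stood above background is not known, since no detection call was used. Among defining mast cell genes, Kit, the IgE receptor genes Fcer1a, Ms4a2 and Fcer1g, the carboxypeptidase gene Cpa3 and the chymase gene Cma1 had control signals of 12.71, 12.81, 13.51, 13.34, 13.50 and 12.78. The tryptase genes Tpsab1 and Tpsb2 were at 6.20 and 6.39, under the array medians. Levels of the other markers are not given here. Of 14 mast cell, 10 macrophage and neutrophil, 6 lymphocyte and 8 fibroblast and epithelial markers measured, 0 were called in any comparison, by limma. At an unadjusted p under 0.05, 6 passed with Curdlan, 4 under R406 against Curdlan alone and 5 against control. Over all probe sets the shares called in these comparisons were 1.59%, 7.25% and 2.23%, and unadjusted 14.4%, 22% and 20.4%. Clec7a, the Dectin-1 gene, was at 7.20 and 6.94 in control, 7.21 and 7.23 with Curdlan, and 7.15 and 7.10 under R406 plus Curdlan, close to the array medians. Whether this probe set reads the introduced transcript is not known, so it does not check the overexpression.

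Most members' changes were small, as were those of most probe sets. With Curdlan, 1 of 33 members rose (3.03%, against 1.04% of all probe sets called higher) and 0 fell (0.551% called lower, 1.59% called in all). By limma without adjustment, 8 of 33 were at p under 0.05, 6 higher and 2 lower, when 14.4% of all probe sets passed that limit. Under R406 plus Curdlan, compared with Curdlan alone, 2 rose (6.06%, against 4.02% of all probe sets) and 2 fell (6.06%, against 3.23%), with 7.25% of all probe sets called. Unadjusted, 6 of 33 were at p under 0.05, 3 higher and 3 lower (22% of all probe sets). Against control, R406 plus Curdlan gave 1 rise (3.03%, against 1.44% of all probe sets) and 0 falls (0.791%, 2.23% called in all). There 11 of 33 were at an unadjusted p under 0.05 in the limma fit, 7 higher and 4 lower (20.4% of all probe sets). The comparisons share arrays and are not independent of each other. The base of all probe sets is unlike the members: 13581 of its 29214 have no gene symbol. Only 4 of the 33 members lay under every array's median. Fitted and adjusted alone, probe sets with 1 gene symbol were called at 4.36% with Curdlan, 13.5% under R406 and 7.12% against control. Those above the median signal were called at 10.8%, 25.4% and 15.6%. The sizes of change and overlaps below use the base of all probe sets.

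The genes behind these counts were Dok1, Sos1, Cblb and Ptpn6. Dok1 rose with Curdlan and was lower under R406. Sos1 and Cblb were higher under R406 and Ptpn6 was lower. The median size of a member's change, in either direction, was 0.0482 log2 units with Curdlan (0.0765 over all probe sets) and 0.0704 under R406 (0.0972 over all). The 95% interval of the change lay wholly within 0.5 log2 units of 0, a 1.41-fold change, for 32 of 33 members with Curdlan and for 32 of 33 under R406. Dok1 was the exception in both. The same held for 85.7% and 82.1% of all probe sets. Array pairs of the groups did not overlap for 17 of 33 members with Curdlan (51.5%, against 43.1% of all probe sets): 10 were higher (19.2% of all) and 7 lower (23.9%). Under R406 against Curdlan alone they did not overlap for 20 (60.6%, against 53.3%), 9 higher (27.7% of all) and 11 lower (25.6%). Against control this held for 24 (72.7%, against 53.5%), 12 higher (25.7% of all) and 12 lower (27.8%).

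**Figure D1:**
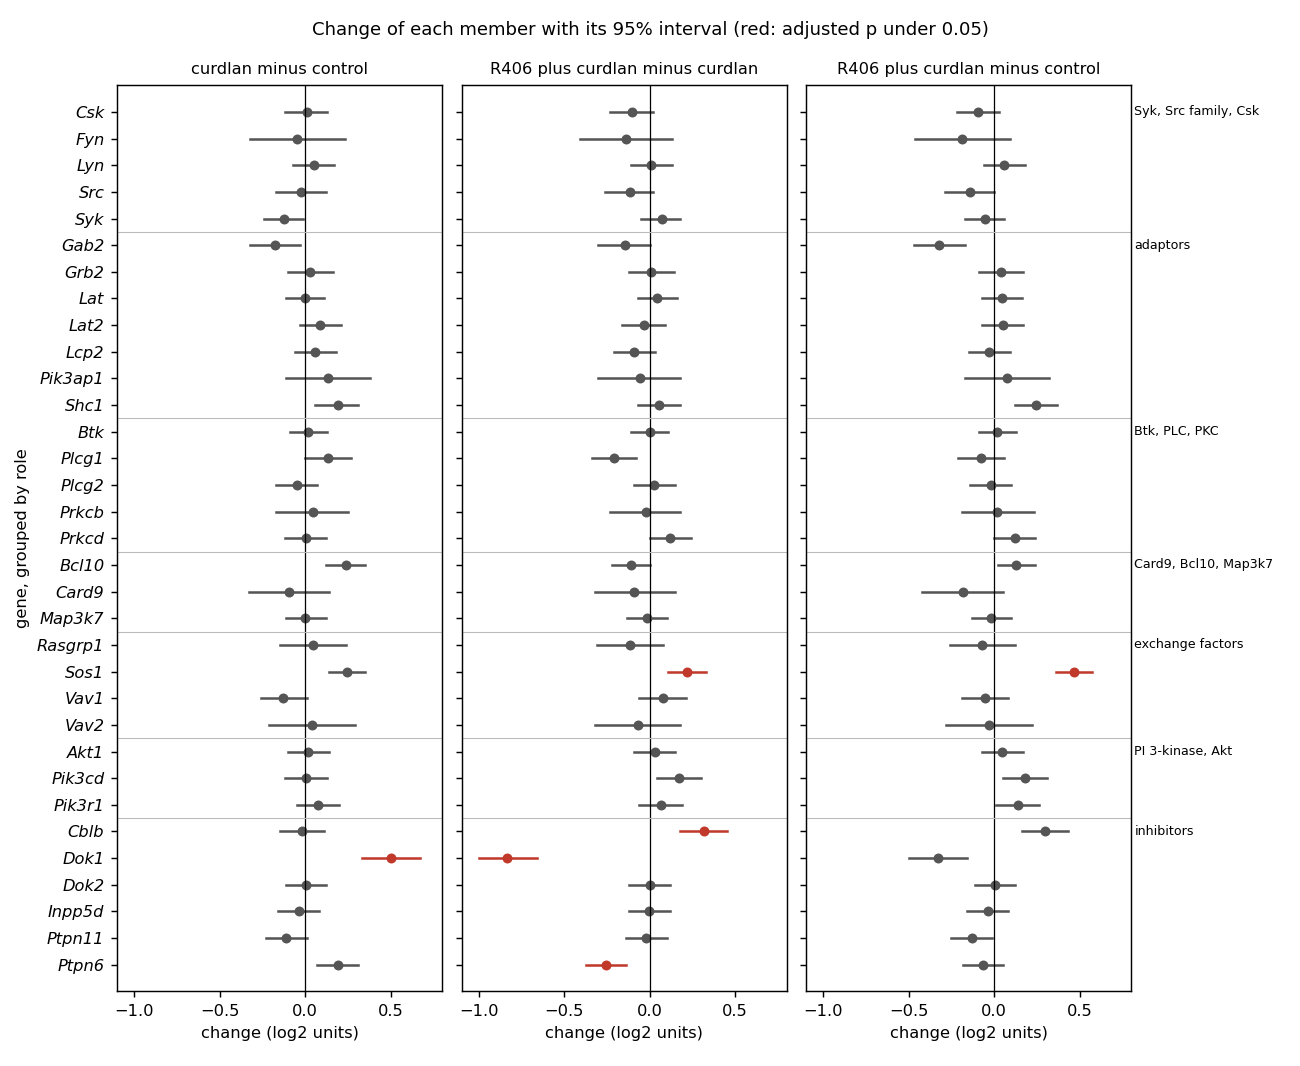
Change in log2 units (x axis) of the 33 measured members (y axis, grouped by role) in the 3 comparisons, with 95% intervals from the limma fit on 6 arrays; red marks an adjusted p under 0.05. Dok1 at 0.50 and -0.83 and Sos1 at 0.46 against control lie farthest from 0, and most other intervals include it.

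The promoters of the 4 genes called in any comparison are shown. The signals of these genes moved in different ways. They are the 250 bases before the annotated start, from RefSeq on the build GRCr8, 5′ to 3′ on the gene's strand. Dok1 lies at chr4:117097635-117097884 (minus strand), Ptpn6 at chr4:159237070-159237319 (minus strand), Sos1 at chr6:20285867-20286116 (plus strand) and Cblb at chr11:62225779-62226028 (minus strand). The Bcl10 promoter, at chr2:237500931-237501180 (plus strand), is added for its motif matches, though Bcl10 was not called in any comparison. Capitals mark matches to any of 8 motifs searched on both strands.
Dok1: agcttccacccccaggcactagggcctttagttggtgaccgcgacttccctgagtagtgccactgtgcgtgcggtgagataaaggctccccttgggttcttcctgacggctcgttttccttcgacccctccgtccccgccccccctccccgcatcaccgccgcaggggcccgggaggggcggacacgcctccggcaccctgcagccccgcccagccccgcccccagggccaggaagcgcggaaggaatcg
Ptpn6: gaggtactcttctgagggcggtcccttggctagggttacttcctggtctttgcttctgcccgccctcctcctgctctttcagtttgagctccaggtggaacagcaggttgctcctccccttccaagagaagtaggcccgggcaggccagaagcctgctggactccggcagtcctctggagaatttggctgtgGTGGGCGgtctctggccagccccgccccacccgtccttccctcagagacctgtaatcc
Sos1: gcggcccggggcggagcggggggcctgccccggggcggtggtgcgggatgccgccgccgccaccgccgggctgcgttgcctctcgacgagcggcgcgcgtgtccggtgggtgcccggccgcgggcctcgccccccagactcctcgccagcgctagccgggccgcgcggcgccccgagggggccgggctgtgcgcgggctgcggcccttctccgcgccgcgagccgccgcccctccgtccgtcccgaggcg
Cblb: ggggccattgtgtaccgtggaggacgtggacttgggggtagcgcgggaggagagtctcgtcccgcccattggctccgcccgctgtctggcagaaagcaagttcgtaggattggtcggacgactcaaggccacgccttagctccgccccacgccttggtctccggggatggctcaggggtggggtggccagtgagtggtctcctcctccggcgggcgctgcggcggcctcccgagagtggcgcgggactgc
Bcl10: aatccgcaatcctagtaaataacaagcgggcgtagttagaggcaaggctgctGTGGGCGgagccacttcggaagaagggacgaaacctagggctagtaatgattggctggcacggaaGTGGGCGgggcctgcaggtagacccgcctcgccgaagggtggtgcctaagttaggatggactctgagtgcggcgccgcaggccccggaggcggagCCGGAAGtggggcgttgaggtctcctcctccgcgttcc

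The motifs were GTGGGCG for EGR factors, TGANTCA for AP-1, GTAAACA for FOXO factors, CACGTG for E-box binders, TGACGT for CREB and ATF factors, CCGGAAG for ETS factors, TTCNNNGAA for STATs and a consensus for NF-kB. No 2 matches overlapped in the promoters printed. Of the printed genes, Ptpn6 had 1 EGR match, at position -58 from the start, and Bcl10 had EGR matches at -198 and -133 and an ETS match at -38. The Dok1, Sos1 and Cblb windows held 0 matches to these 8 motifs. A promoter was at hand for 27 members, and 6 of them held the EGR letters (22.2%, against 6.79% of 27457 rat promoters of that length): Gab2, Bcl10, Plcg1, Ptpn6, Map3k7 and Prkcd. The members' promoters were richer in G and C, with a median of 61.6% against 52%, and the part of base composition in that share was not tested. AP-1 letters stood in Shc1 and Lat2 (7.41% of members, 6.36% of all), and the E-box in Lat, Pik3ap1 and Plcg2 (11.1% and 5.79%). ETS letters stood in Bcl10 and Ptpn11 (7.41% and 7.74%), CREB letters in Map3k7 (3.7% and 7.25%) and STAT letters in Rasgrp1 (3.7% and 7.52%). FOXO and NF-kB letters were in 0 of 27, against 3.25% and 1.28% of all promoters. These are matches of letters and say nothing of binding.

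The receptor-proximal kinases did not pass in any comparison. Syk (probe set 10797509), the kinase that R406 inhibits, had signals of 9.17 and 9.12 in control, 9.01 and 9.03 with Curdlan, and 9.09 and 9.09 under R406 plus Curdlan. The Curdlan arrays were the lowest and did not overlap with the others, but the difference from control was small, with a 95% interval of -0.24 to -0.01 log2 units (limma adjusted p = 0.31). Lyn, the main Src family kinase of the mast cell IgE receptor, had a change of 0.05 ± 0.0468 with Curdlan and 0.01 ± 0.0468 under R406 (adjusted p = 0.709 and 0.929). Fyn, which acts beside Lyn at that receptor, had a change of -0.14 ± 0.107 under R406 (adjusted p = 0.518). This value rested on 1 array: the second R406 array had a signal of 5.73, and the other 5 lay between 6.02 and 6.10. Without R406 plus Curdlan replicate 2 the change of Fyn was 0.02. Src was at 7.76 and 7.66 in control and at 7.55 and 7.58 under R406 plus Curdlan (change against control -0.14 ± 0.0557, adjusted p = 0.241). Csk, which phosphorylates the inhibitory tail of Src kinases, had a change of -0.10 ± 0.049 under R406 (adjusted p = 0.311).

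Of the 7 adaptor genes, 0 passed in any comparison by limma. Over all probe sets 1.59% were called with Curdlan, 7.25% under R406 and 2.23% against control. At an unadjusted p under 0.05 with Curdlan were 2 of the 7 (14.4% of all probe sets). Lat and Lat2 encode membrane scaffolds that hold Grb2, and Lat also holds phospholipase C gamma. Lat had a change of 0.00 ± 0.0439 with Curdlan and 0.04 ± 0.0439 under R406, with all 6 arrays between 11.51 and 11.58. Lat2 had a change of 0.09 ± 0.0477 with Curdlan and its 6 arrays lay between 10.12 and 10.25. Lcp2, the scaffold also called SLP-76, had changes of 0.06 ± 0.0466 and -0.09 ± 0.0466. Grb2, which couples scaffolds to Sos1, had a change of 0.03 ± 0.0509 with Curdlan, and 0.05 ± 0.105 by its dimmer probe set.

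Gab2 had the widest range of the adaptors over the 6 arrays, 0.39 log2 units. Gab2 (probe set 10708745), which recruits PI 3-kinase downstream of the IgE receptor, had signals of 10.92 and 10.90 in control, 10.71 and 10.76 with Curdlan, and 10.65 and 10.53 under R406 plus Curdlan. The 3 groups did not overlap and the control arrays were the highest. The change against control was -0.18 ± 0.0586 with Curdlan and -0.32 ± 0.0586 under R406 plus Curdlan (limma adjusted p = 0.273 and 0.0676). Shc1 (probe set 10816791), an adaptor that leads to Grb2 and Ras, was at 11.00 and 10.98 in control, 11.15 and 11.21 with Curdlan and 11.21 and 11.26 under R406. Both stimulated groups stood above control, by 0.19 ± 0.049 and 0.24 ± 0.049 (adjusted p = 0.176 and 0.0823). Pik3ap1, the PI 3-kinase adaptor BCAP, had a dim signal and a change of 0.13 ± 0.0952 with Curdlan (adjusted p = 0.611).

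**Figure D2:**
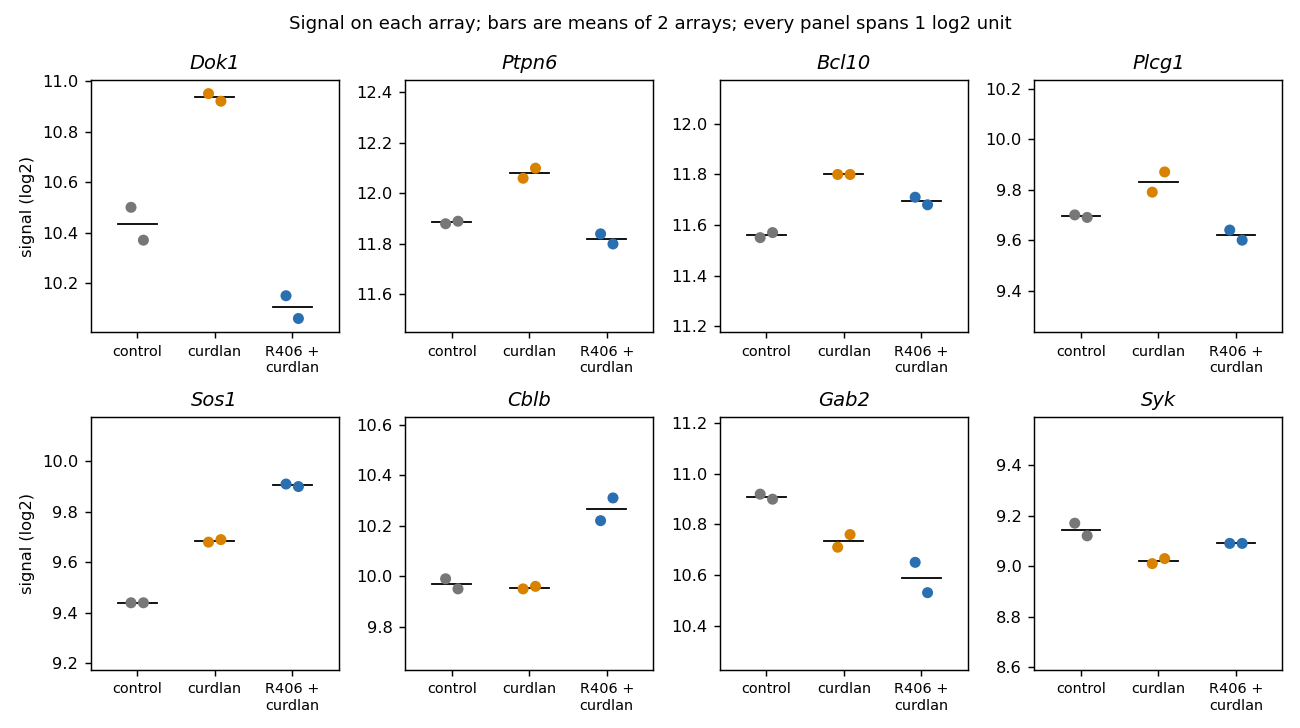
Signal in log2 units (y axis) of 8 members on each of the 6 arrays, by group (x axis); points are arrays, bars the means of 2 arrays, and every panel spans 1 log2 unit. Dok1 is highest with Curdlan and lowest under R406 plus Curdlan, Sos1 steps from 9.44 to 9.69 and 9.91, and Syk stays between 9.01 and 9.17.

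Genes of the second-messenger branch did not pass either. Plcg1 and Plcg2 encode the phospholipases C gamma, which make inositol trisphosphate and diacylglycerol and so start the calcium signal. Plcg1 (probe set 10841850) was at 9.70 and 9.69 in control, 9.79 and 9.87 with Curdlan, and 9.64 and 9.60 under R406 plus Curdlan. Its Curdlan arrays were the highest, and the difference under R406 was -0.21 ± 0.0519 (limma adjusted p = 0.0887). Plcg2, with all 6 arrays between 9.34 and 9.43, had changes of -0.05 ± 0.0467 and 0.03 ± 0.0467. Btk, the Tec family kinase that acts on phospholipase C gamma, varied least: its 6 arrays lay between 12.78 and 12.83. Prkcd, the protein kinase C that phosphorylates Card9, had a change of 0.00 ± 0.0479 with Curdlan and 0.12 ± 0.0479 under R406 (adjusted p = 0.989 and 0.233). Prkcb had a dim signal and a change of 0.04 ± 0.0818 with Curdlan (adjusted p = 0.873).

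In the Card9 module, 3 of 4 genes were measured and 0 passed by limma in any comparison. Over all probe sets 1.59% were called with Curdlan, 7.25% under R406 and 2.23% against control. Bcl10 (probe set 10819653), the partner of Card9 and Malt1, had signals of 11.55 and 11.57 in control, 11.80 and 11.80 with Curdlan, and 11.71 and 11.68 under R406 plus Curdlan. The Curdlan arrays were the highest and the R406 arrays lay between the other groups. The change with Curdlan was 0.24 ± 0.0437 (95% interval 0.12 to 0.35), which missed the threshold (adjusted p = 0.0886, unadjusted p = 0.0027), and the change under R406 was -0.11 ± 0.0437 (adjusted p = 0.239). Bcl10 passed with Curdlan among probe sets above the median signal, among those with 1 gene symbol and with a trended, robust variance (adjusted p = 0.0128, 0.035 and 0.00318). It did not pass in the other 12 fits (0.086 to 0.28). Card9 (probe set 10843697) was at 7.59 and 7.52 in control, 7.58 and 7.34 with Curdlan, and 7.32 and 7.42 under R406 plus Curdlan. The gap of 0.23 between its Curdlan arrays exceeded every difference between its group means. The change with Curdlan was -0.09 ± 0.0921 (limma adjusted p = 0.726). Map3k7, the kinase TAK1 that acts after the Card9 module, had a change of 0.00 ± 0.0454 with Curdlan and -0.02 ± 0.0454 under R406.

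Among the exchange factors Sos1 changed and the 3 others measured did not pass. Sos1 (probe set 10888021), which loads Ras with GTP, had signals of 9.44 and 9.44 in control, 9.68 and 9.69 with Curdlan, and 9.91 and 9.90 under R406 plus Curdlan. The groups did not overlap, and the arrays with R406 were the highest. Sos1 rose by 0.22 ± 0.0425 under R406 against Curdlan alone and by 0.46 ± 0.0425 against control, a 1.38-fold change (limma adjusted p = 0.0465 and 0.0171). In fits of only the 4 arrays compared and with a replicate block, Sos1 passed in neither comparison. After quantile normalization Sos1 did not pass against Curdlan alone. Its change with Curdlan alone was 0.24 ± 0.0425 (adjusted p = 0.0764), which passed in 3 alternative fits (0.0102 to 0.0288) and not in the other 12 (0.0798 to 0.261). Without each array in turn the rise under R406 had an adjusted p between 0.084 and 0.232, and the rise against control between 0.0568 and 0.165, so neither passed in a fit of 5 arrays.

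Vav1, a guanine nucleotide exchange factor of blood cells, was at 11.58 and 11.67 in control, 11.48 and 11.52 with Curdlan, and 11.56 and 11.59 under R406. Its change with Curdlan was -0.13 ± 0.0533 (adjusted p = 0.376). Vav2 had a change of 0.04 ± 0.0984 and a gap of 0.27 between its Curdlan arrays, wider than any difference between group means. Rasgrp1, a Ras exchange factor that responds to diacylglycerol, had a dim signal and a change of -0.11 ± 0.0756 under R406 (adjusted p = 0.456).

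The PI 3-kinase genes did not pass. Pik3cd (probe set 10881777), the catalytic subunit p110 delta of blood cells, was at 10.57 and 10.65 in control, 10.60 and 10.64 with Curdlan, and 10.80 and 10.78 under R406 plus Curdlan. Only the R406 arrays stood apart, at 0.17 ± 0.0504 above Curdlan alone (limma adjusted p = 0.129). Pik3r1, the regulatory subunit p85 alpha, had changes of 0.07 ± 0.0495 with Curdlan and 0.06 ± 0.0495 under R406. Akt1, the kinase activated by the lipid product of PI 3-kinase, had changes of 0.02 ± 0.0474 and 0.03 ± 0.0474.

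The group of inhibitors and phosphatases, 6 of the 33 measured members, held 3 of the 4 called members. With Curdlan 1 of the 6 was called higher (16.7%, against 1.04% of all probe sets) and 0 lower (0.551%). Under R406 1 was called higher (16.7%, against 4.02%) and 2 lower (33.3%, against 3.23%). Against control 0 were called (2.23% of all). Dok1 (probe set 10863471), an adaptor that recruits the Ras GTPase-activating protein and so limits Ras signalling, had signals of 10.50 and 10.37 in control, 10.95 and 10.92 with Curdlan, and 10.15 and 10.06 under R406 plus Curdlan. The Curdlan arrays were the highest, the R406 arrays the lowest, and no groups overlapped. Dok1 rose by 0.50 ± 0.0663 with Curdlan, a 1.42-fold change (limma adjusted p = 0.0429). That rise did not pass in a fit of only the 4 arrays compared or with a replicate block. The highest adjusted p over the fits of all or 4 arrays was 0.125. Under R406 Dok1 fell by 0.83 ± 0.0663, a 1.78-fold change (adjusted p = 0.00532). Against control the arrays with R406 differed by -0.33 ± 0.0663 (adjusted p = 0.0816). Dok1 was the member with the widest range over the 6 arrays, 0.89 log2 units, and the only one above 0.5. Its fall under R406 passed without each array in turn except R406 plus Curdlan replicate 2 (adjusted p = 0.0575). Its rise with Curdlan did not pass without any 1 array (adjusted p 0.117 to 0.192), with changes between 0.43 and 0.57.

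Its paralogue Dok2 showed no such movement: all 6 arrays lay between 8.31 and 8.36 and the 95% interval of its Curdlan change was -0.11 to 0.12. The difference between the paralogues was not tested.

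Ptpn6 (probe set 10865463), the phosphatase SHP-1, which removes phosphate from Syk pathway proteins, was at 11.88 and 11.89 in control, 12.06 and 12.10 with Curdlan, and 11.84 and 11.80 under R406 plus Curdlan. Like Dok1 it was highest with Curdlan, and the groups did not overlap. It fell by 0.26 ± 0.0464 under R406 (adjusted p = 0.0401), and its change with Curdlan was 0.19 ± 0.0464 (adjusted p = 0.155). In limma fits of only the 4 arrays compared and with a replicate block, the fall missed the threshold (adjusted p = 0.0781 and 0.0834). The fall did not pass without any 1 array (0.0781 to 0.23) or with arrays centred on their median (0.0554).

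Cblb (probe set 10753747), a ubiquitin ligase that targets activated receptors and kinases, was at 9.99 and 9.95 in control, 9.95 and 9.96 with Curdlan, and 10.22 and 10.31 under R406 plus Curdlan. Control and Curdlan arrays overlapped, and only the arrays with R406 were higher. The rise under R406 was 0.32 ± 0.0521, a 1.24-fold change (limma adjusted p = 0.0318), and against control the difference was 0.30 ± 0.0521 (adjusted p = 0.0639). In a fit of only the 4 arrays compared and with a replicate block, the rise under R406 did not pass. Its highest adjusted p over the fits of all or 4 arrays was 0.0702. The rise did not pass without any 1 array (0.0684 to 0.187). Inpp5d, the lipid phosphatase SHIP1 that opposes PI 3-kinase, stayed between 11.26 and 11.33 on all arrays. Ptpn11, the phosphatase SHP-2, had a change of -0.11 ± 0.0484 with Curdlan (adjusted p = 0.397).

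**Figure D3:**
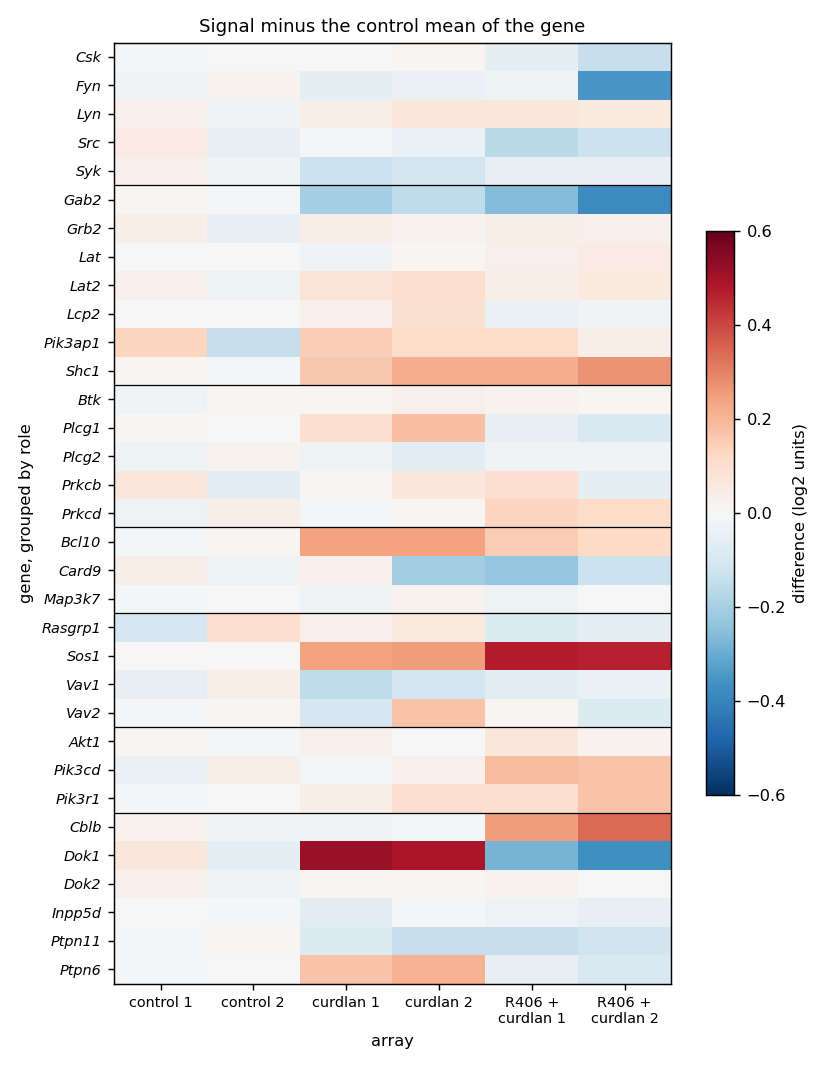
Signal of each of the 33 members (y axis, grouped by role) on each of the 6 arrays (x axis), minus the gene's control mean, in log2 units (colour scale from -0.6 to 0.6). Dok1 changes sign between the Curdlan and R406 plus Curdlan arrays, Sos1 stands above its control mean in both stimulated groups, and most other cells are pale.

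Other genes of the same pathway were taken from 7 lists, chosen with earlier results of these data known: 139 genes, of which 117 were measured. With Curdlan 7 rose and 1 fell, by limma (1.04% of all probe sets called higher and 0.551% lower). Under R406 2 rose and 14 fell against Curdlan alone (4.02% and 3.23% of all probe sets). Unadjusted, 31 and 32 of the 117 were at p under 0.05 (14.4% and 22% of all probe sets). The median changes were 0.00782 and -0.00455, beside -0.0113 and -0.00195 over all probe sets.

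Of the further list of inhibitors and phosphatases, the longest measured, 3 of 24 rose with Curdlan (12.5%, against 1.04% of all probe sets). Under R406 8 fell (33.3%, against 3.23%). In the limma fit 0 were called the other way in either comparison, and at an unadjusted p under 0.05 3 were lower with Curdlan and 2 higher under R406. Its median change was 0.0659 and -0.0888. Sla, which encodes an adaptor that promotes the degradation of immune receptors, had signals of 11.94 and 11.89 in control, 12.44 and 12.34 with Curdlan, and 11.11 and 11.11 under R406 plus Curdlan. Like Dok1, its Curdlan arrays were the highest and its R406 arrays the lowest. Sla rose by 0.48 ± 0.0552 with Curdlan and fell by 1.28 ± 0.0552 under R406 (limma adjusted p = 0.0331 and 0.00114). Pag1, which anchors Csk at the membrane, rose by 0.39 ± 0.0522 with Curdlan and fell by 0.58 ± 0.0522 under R406. Rasa2, a Ras GTPase-activating protein, fell by 0.70 ± 0.0532 under R406, and Cd200r1, an inhibitory receptor, fell by 1.29 ± 0.0596.

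The remaining calls of that list were Ptpn12, a phosphatase, at 0.33 ± 0.0445 with Curdlan and -0.25 ± 0.0445 under R406, and, under R406, Sh2b3 at -0.42 ± 0.0566, Rasal3 at -0.24 ± 0.0464 and Spred1 at -0.24 ± 0.0426. The 3 rises passed in 0 of the 6 fits that left out 1 array. In these fits between 2 and 5 of the 8 falls passed, 2 without R406 plus Curdlan replicate 1 or 2. Sla and Cd200r1 passed in each of these 6 fits. With arrays centred on their median 5 passed.

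Further kinases of the Src, Tec and Syk families and their relatives were also called. Yes1, a Src family kinase, was at 9.20 and 9.05 in control, 9.74 and 9.87 with Curdlan, and 9.25 and 9.25 under R406 plus Curdlan. Only its Curdlan arrays were high. It rose by 0.68 ± 0.0742 with Curdlan and fell by 0.56 ± 0.0742 under R406 (limma adjusted p = 0.0298 and 0.0185). Ptk2b, the calcium-responsive kinase Pyk2, rose by 0.60 ± 0.0508 and fell by 0.43 ± 0.0508 under R406. Txk, a Tec family kinase, fell by 0.63 ± 0.0761 under R406. In all, 2 of 10 genes of this list rose with Curdlan (20%, against 1.04% of all probe sets) and 3 fell under R406 (30%, against 3.23%). Without 1 array each, the falls of Yes1 and Ptk2b passed in 2 of 6 fits and that of Txk in 3.

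In each of the other lists, at most 1 gene was called in each direction per comparison. Of 17 genes from protein kinase C and Ras to the MAP kinases, Map2k3, an activator of p38, rose by 0.54 ± 0.0602 with Curdlan and fell by 0.61 ± 0.0602 under R406. Map2k6, which also activates p38, fell by 0.41 ± 0.0558 with Curdlan, and Prkcq rose by 0.24 ± 0.0455 under R406. Each of these calls is 5.88% of the 17 genes. Over all probe sets 1.04% were called higher and 0.551% lower with Curdlan, and 4.02% and 3.23% under R406. Inpp4b, a lipid phosphatase, rose by 0.53 ± 0.0723 with Curdlan among 18 PI 3-kinase, Akt and lipid signalling genes (5.56%). Of 15 CARD, TRAF and IKK genes, Map3k14, the kinase NIK, fell by 0.33 ± 0.0633 under R406 (6.67%).

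Of 12 receptor and ITAM adaptor genes, 0 passed with Curdlan by limma, when 1.59% of all probe sets did. Of the 12, 3 were at an unadjusted p under 0.05 (14.4% of all probe sets). Under R406 Hcst, an adaptor of activating receptors, rose by 0.29 ± 0.043 and Itgam, an integrin subunit, fell by 0.36 ± 0.0661. Each is 8.33% of the 12, against 4.02% of all probe sets called higher and 3.23% lower. Fcer1g, the ITAM-bearing gamma chain, had a change of 0.00 ± 0.0424 with Curdlan and 0.08 ± 0.0424 under R406. Of 21 further adaptors and exchange factors, 0 passed in any comparison (1 at an unadjusted p under 0.05 with Curdlan and 2 under R406). Over all probe sets 1.59% were called with Curdlan, 7.25% under R406 and 2.23% against control. Of the 8 genes of the 7 lists called with Curdlan, 0 passed in any fit that left out 1 array. Under R406 the same was true of Hcst, Itgam, Map3k14 and Prkcq, and among the inhibitors of Ptpn12, Rasal3 and Spred1, while Sh2b3 passed in 1 of 6 and Map2k3, Pag1 and Rasa2 in 4.

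**Figure D4:**
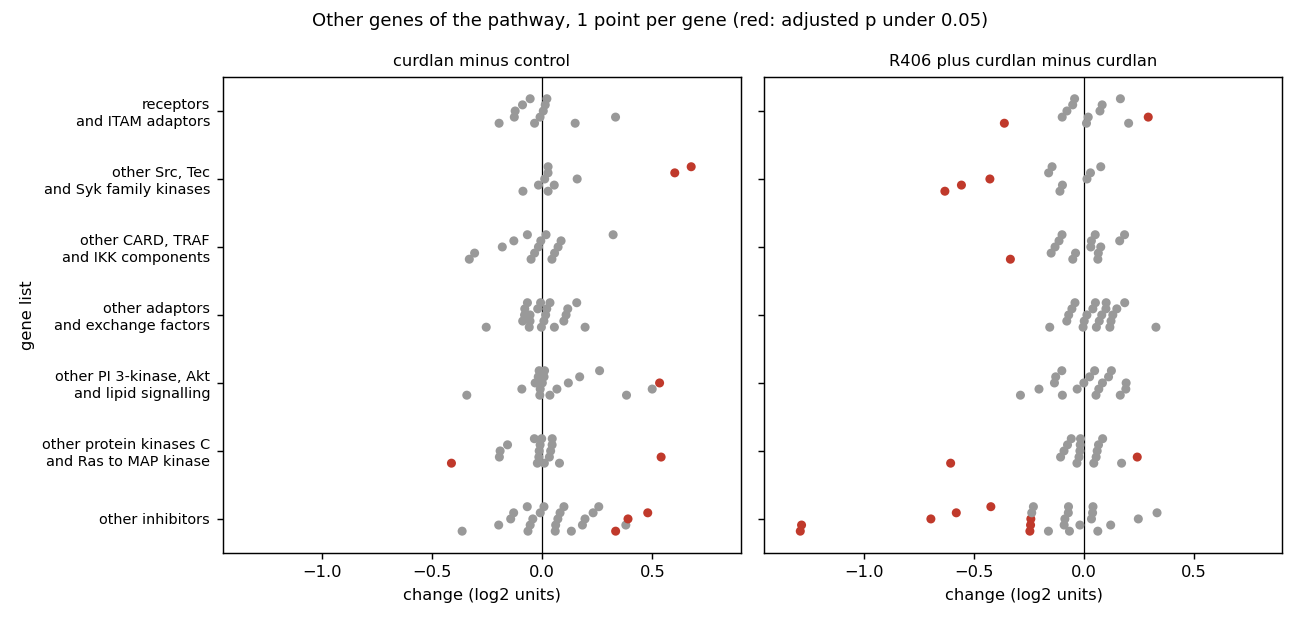
Change in log2 units (x axis) with Curdlan (left) and under R406 plus Curdlan against Curdlan alone (right) of the 117 other pathway genes, 1 point each, by list (y axis); red marks an adjusted p under 0.05. The 8 red points of the inhibitor list on the right all lie below 0, with Sla and Cd200r1 at -1.28 and -1.29.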

How the data were processed

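Transcripts were measured on 6 rat Affymetrix arrays, 2 per group, after biotin labelling of cDNA with a whole-transcript kit, per the labels. The authors deposited a log2 signal for each probe set on each array. The submitters' processing notes name Affymetrix Expression Console. Its version, the background correction, the between-array method and the genome build were not given in the sources used here. Base 2 is inferred from the range: the highest signal lay between 14.37 and 14.41 on every array. As array medians nearly coincide (7.204 to 7.241), a change shared by most transcripts would not be seen. The number of arrays limits the precision. Of 29214 probe sets, 15310 had 1 gene symbol, 323 several and 13581 none.

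All 6 arrays were fitted in 1 limma model (R 4.3.3, limma 3.58.1, lmFit and eBayes) with 3 groups, no filter and no further normalization, giving 3 residual and 2.16 prior degrees of freedom. Intervals are 95%, unadjusted. The fit was tested on simulated data with independent normal noise, which cannot check whether these assumptions hold for the arrays. Arrays of 1 group correlated at 0.9975 to 0.9981, and at most 39 values were identical between any 2 arrays. Named in every case were Syk, Card9, Bcl10, Plcg2, Lyn, Fyn, Lat, Lat2, Vav1 and Inpp5d, then every called member, the largest rise and fall of each role group, and at most 4 called genes per further list and comparison. Further called inhibitors were named after their values were seen. The members, lists and motifs were chosen with earlier results of these data known. Promoters came from RefSeq (GRCr8). No protein sequence was used here. Alternatives were quantile normalization, median centring, 2 restrictions of probe sets, a trended robust variance, 4 arrays per fit, a replicate block, leaving out each array, a stricter threshold and averaging probe sets.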

Additional observations from a re-analysis of the deposited data

How the results depend on the processing

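Counts of called members depended on the settings more than the sizes of change did. The share called over all features tested moved with the settings too. With Curdlan it was 1.59% in the main fit, 10.8% above the median signal and 4.36% with 1 gene symbol. It was 5.47% with a trended robust variance, 0.233% with 4 arrays and 0.349% with a replicate block. In the same order the shares were 7.25%, 25.4%, 13.5%, 13%, 4.22% and 3.86% under R406. Against control they were 2.23%, 15.6%, 7.12%, 8.22%, 0.623% and 0.212%. With Curdlan, 1 member rose, but 5 did among probe sets above the median signal, 3 among those with 1 gene symbol and 5 with a trended robust variance, and 0 did in the fit of 4 arrays, with a replicate block, at an adjusted p under 0.01, or without any 1 array (0 to 0). Under R406, 2 members rose, against 1 after quantile normalization and 0 in the fit of 4 arrays, with the replicate block, at 0.01 and without any 1 array. The 2 that fell became 1 with median centring, 4 arrays, the block or 0.01, 4 with the trended variance, and 0 to 1 without 1 array. Against control, the 1 that rose became 4 above the median signal, 3 with 1 gene symbol, 6 with the trended variance, and 0 with 4 arrays, the block, 0.01 or 1 array left out. The 0 that fell became 2 above the median signal, with 1 gene symbol and with the trended variance. The cause was not tested, but fits of 4 or 5 arrays have 2 residual degrees of freedom in place of 3.

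Deviations of same-numbered arrays from their group means correlated weakly (-0.1149, -0.0045 and 0.1131). With 2 arrays per group the signs depend on the numbering, so these values cannot exclude a shared culture or batch. With the control numbers crossed, an alternative chosen after seeing the data, 0 members rose with Curdlan, 0 rose and 1 fell under R406, and 0 rose against control. Without 1 array each, signs turned for values that were not called. Card9 ran from -0.21 to 0.02 with Curdlan (0.02 without Curdlan replicate 2) and from -0.21 to 0.03 under R406 (0.03 without Curdlan replicate 1). Rasgrp1 ran from -0.05 to 0.14 with Curdlan (-0.05 without control replicate 1) and from -0.17 to 0.03 against control (0.03 without control replicate 2). Fyn ran from -0.30 to 0.02 under R406 (0.02 without R406 plus Curdlan replicate 2). A further 18 sign changes were of uncalled values within 1 SE. No called change turned its sign. The fall of Dok1 under R406 passed in each of the 9 fits of all or 4 arrays, between -0.86 and -0.81.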

Other observations

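Set against control instead of Curdlan alone, the R406 plus Curdlan arrays had 0 of 117 other pathway genes higher and 6 lower (limma, Benjamini-Hochberg; unadjusted, 10 were higher and 16 lower at p under 0.05). Over all probe sets 1.44% were called higher and 0.791% lower in this comparison. The 6 were Cd200r1 at -0.91 ± 0.0596, Sla at -0.80 ± 0.0552, Txk at -0.72 ± 0.0761, Rasa2 at -0.46 ± 0.0532, Casp8 at -0.46 ± 0.0482 and Spred1 at -0.31 ± 0.0426. Casp8, the caspase that also takes part in Card9 signalling complexes, was at 10.33 and 10.30 in control, 10.03 and 9.99 with Curdlan, and 9.88 and 9.83 under R406 plus Curdlan. Its 3 groups did not overlap, and both stimulated groups lay under control. Spred1, an inhibitor of the Ras to ERK step, was at 12.11 and 12.10 in control, 12.05 and 12.04 with Curdlan, and 11.80 on both arrays with R406. Without 1 array each, Cd200r1, Sla and Txk passed in 2 of 6 fits and the other three in 0.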
